A study of Mus musculus with 11 samples.

Results

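*Itga2*, *Itga4*, and *Itga7* encode integrin alpha chains and were the only integrin subunits among the genes analysed here. They were found by gene symbol, *Itga2* and *Itga4* among 290 genes with values for HaCa4 cells and *Itga7* among 191 genes with values for lymphatic endothelial cells (LECs), so that 3 of 458 different genes are described. RNA was sequenced from 11 libraries of mouse cell lines. HaCa4 is a skin squamous carcinoma line that carries an oncogenic H-Ras and was treated with the tumour promoter TPA, and the groups were HaCa4 control (single culture, n = 2) and HaCa4-sorted (co-cultured with LECs for 24 h and isolated by FACS, n = 3). The LECs, named imLEC in the labels, carry the H-2Kb-tsA58 transgene, whose temperature-sensitive SV40 large T antigen makes them conditionally immortal, and the groups were LEC control (single culture, n = 3) and LEC-sorted (co-cultured with HaCa4, n = 3). The study used LEC clones interchangeably, and which clone gave which library is not given in the sources used here. Cancer cells were sorted by the dye CFSE and LECs by an antibody to CD31, the product of *Pecam1*. The methods do not say that control cultures were stained and sorted, so co-culture and sorting cannot be told apart. Replicates are separate libraries of a group, and p-values measure the spread between them, which may be technical.

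Integrins are cell surface receptors in which an alpha chain pairs with a beta chain, binds matrix or a counter-receptor outside the cell, and connects to actin through proteins at the beta tail. All the alpha chains described here pair with the beta-1 chain. The alpha-2 chain, in basal keratinocytes and platelets, makes a receptor for collagen and also binds laminin. The alpha-4 chain is best known from leukocytes, where its dimers bind VCAM-1, fibronectin, osteopontin, and JAM-B. The alpha-7 chain makes a laminin receptor best known from skeletal and smooth muscle.

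The coding bases for the tail of each chain just inside the membrane are shown because they are the signature of the family and lie at the same place in the 3 genes. Capitals mark the 5 codons for glycine, phenylalanine, phenylalanine, lysine, and arginine, which hold the alpha and beta tails together in the resting receptor. The sequences were read 5′ to 3′ from GENCODE M21 transcripts on GRCm38.
Itga2: ggtttgtggaagctcGGCTTCTTCAAAAGA
Itga4: gttatgtggaaggctGGATTCTTTAAAAGA
Itga7: ctgctgtggaagctgGGATTCTTCAAGCGG
Each stretch of 30 bases crossed the last intron of its gene, and the last exon began after base 12 in all 3 genes. The stretch of *Itga2* ran over exons 29 and 30 of 30 (chromosome 13, minus strand, between 114836548 and 114837104). That of *Itga4* ran over exons 27 and 28 of 28 (chromosome 2, plus strand, between 79325683 and 79326537), and that of *Itga7* over exons 24 and 25 of 25 (chromosome 10, plus strand, between 128954060 and 128957638). Of the 15 bases in capitals, *Itga2* and *Itga4* shared 13, and *Itga7* shared 11 with either of them. The longest coding models had 1178 codons for *Itga2*, 1032 for *Itga4*, and 1140 for *Itga7*. After the capitals, 20 codons followed in *Itga2*, 25 in *Itga4*, and 70 in *Itga7*, so the alpha-7 tail was the longest in these models.

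*Itga2* (Entrez 16398, GRCm38.p6, chromosome 13 from 114833081 to 114932100) was well expressed in HaCa4 cells and lower after co-culture. It had 42.92 and 37.10 TPM (a level scaled per transcript length and to the same fixed total in each library) in HaCa4 control replicates 1 and 2. In HaCa4-sorted it had 26.88, 20.53, and 25.69 TPM in replicates 1 to 3. The groups did not overlap, and a gap of 10.2 TPM separated the lowest control from the highest sorted library. The control mean was 40.01 ± 4.12 TPM (SD, n = 2). The sorted mean of 24.4 ± 3.38 TPM (SD, n = 3) was 60.9% of it. On the log2(TPM + 1) scale *Itga2* fell by 0.70 (standard error 0.18, 95% interval from -1.13 to -0.27, adjusted p = 0.0386 from limma). This passed the thresholds of the study, an adjusted p no higher than 0.05 with a log2 difference of 0.5 or more in size. They were applied here to limma on TPM, while the study used DESeq2 and named *Itga2* as downregulated. The listed genes were a selection of the study from these same libraries, so the adjusted p is no separate evidence of a difference. By size, the fall of *Itga2* was number 41 among the 98 genes with a lower mean, so it was neither among the strongest nor among the weakest falls. Its spread was small in HaCa4-sorted, with an SD of 0.20 on the log2 scale against a median of 0.39 over the 290 genes. In HaCa4 control, over 2 libraries, its SD of 0.15 was above the median of 0.09. The direction was kept when any library was left out, which groups without overlap fix in advance. The call was lost without sorted replicate 3 (adjusted p = 0.0827 from limma), where 0 of the 290 listed genes passed. It was also lost without control replicate 1 (log2 difference -0.60) or 2 (-0.80). In those fits 1 control remained, and few or none of the listed genes passed. Scaling libraries to the same sum of the listed genes also ended the call, with a log2 difference of -0.45 (adjusted p = 0.085 from limma). That sum rests on selected genes, so the scaling can itself shift a difference.

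*Itga4* (Entrez 16401, chromosome 2 from 79255426 to 79333114) was barely detected in HaCa4 cells grown alone. It was at 0.01 TPM in HaCa4 control replicate 1 and listed at 0 in replicate 2. In HaCa4-sorted it was at 0.15, 1.35, and 0.47 TPM in replicates 1 to 3. Every sorted library lay above both controls, and replicate 2 was 9.0 times as high as replicate 1. The level remained low, since *Itga4* was number 267 of the 290 genes by mean TPM. Its log2 difference was 0.66 (standard error 0.39, 95% interval from -0.29 to 1.603, adjusted p = 0.157 from limma), and it did not pass the thresholds in limma. The study, using DESeq2, named *Itga4* among the upregulated genes of co-cultured HaCa4 cells. It also reported that the adhesion genes tested by RT-qPCR, *Itga4* among them, were elevated there. Without sorted replicate 1 the log2 difference was 0.89 and passed (adjusted p = 0.031 from limma), as did 194 of the 290 listed genes. Without sorted replicate 2 the log2 difference was 0.37 (adjusted p = 0.272 from limma). A pseudocount of 0.1 in place of 1 gave 2.49 (adjusted p = 0.061 from limma), because the size of a difference from a level near 0 is set by the pseudocount. The deposited values have 2 decimals, so 0.01 TPM is the smallest level above 0 that they can show. In GENCODE M21 a total of 2581 bases of *Itga4* overlap with *Cerkl* on the opposite strand. Whether reads were counted by strand is not given in the sources used here, so reads of both genes may not be told apart there.

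Of the 2 alpha chains in HaCa4 cells, 1 passed the thresholds, beside 30.0% of the 290 listed genes. Both had groups without overlap, as did 96.6% of the listed genes, which were a selection of the study from these same libraries. The chains differed from control in opposite directions in the same bulk libraries, though *Itga4* did not pass the thresholds. *Itga2* remained the more abundant of them per transcript length in every library. In HaCa4-sorted replicates 1 to 3, *Itga2* had 179, 15.2, and 54.7 times the TPM of *Itga4*. *Itga4* thereby made up 0.555%, 6.17%, and 1.80% of their joint TPM, and at most 0.0233% in the controls. The library with the lowest *Itga2* was the one with the highest *Itga4*, and the library with the highest *Itga2* had the lowest *Itga4* of the sorted group. An exact two-sided permutation test over libraries cannot go below p = 0.2 for 2 against 3, and gave exactly p = 0.2 for both genes.

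**Figure D1:**
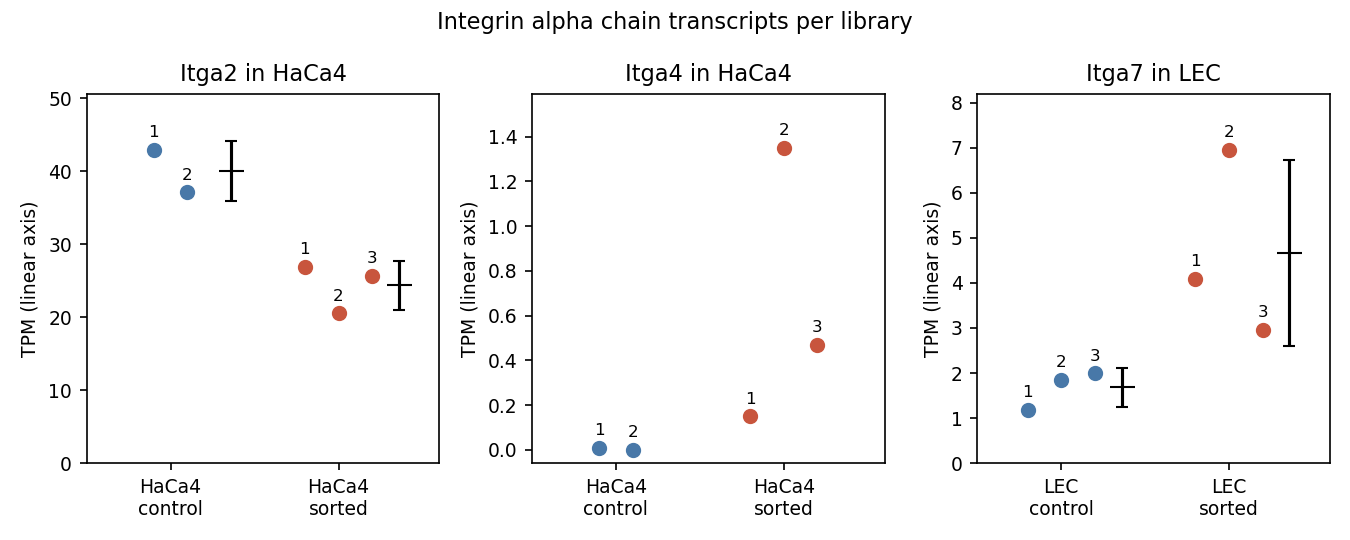
TPM (linear axes, a separate one for each gene) of *Itga2* and *Itga4* in HaCa4 control and HaCa4-sorted and of *Itga7* in LEC control and LEC-sorted; points are libraries with their replicate number, and black bars are mean ± SD, left out for *Itga4* because a control is listed at 0. The sorted libraries lie below both controls for *Itga2*, between 20.53 and 26.88 TPM, and above the controls for *Itga4* and *Itga7*.

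Markers of endothelium, the cell type that HaCa4 cells were sorted away from, were higher in HaCa4-sorted, as *Itga4* was. Of 50 endothelial markers 25 had values for HaCa4, all 25 with a higher mean in HaCa4-sorted, and 3 of them, *Emcn*, *Plvap*, and *Ctla2a*, passed the thresholds, a smaller share than the 30.0% of all listed genes. These calls were lost without sorted replicate 3 (adjusted p from 0.0778 to 0.107 from limma), where 0 of the 290 listed genes passed. They were also lost without either control, where 1 control remained and few or none of the listed genes passed. That of *Plvap* was lost without sorted replicate 2 as well (adjusted p = 0.0504 from limma). A higher mean was also found in 192 of the 290 listed genes. Summed over the markers, the controls had 5.63 to 7.54 TPM. HaCa4-sorted replicates 1 to 3 had 29.6, 379, and 166 TPM. In both controls 22 of the 25 were under 0.5 TPM, and 8 were listed at 0, among them *Cdh5* (VE-cadherin), *Emcn*, *Flt4*, and *Erg*. Genes this low in the controls had little room to be lower after sorting, so their shared direction is no separate result. All 25 markers ranked the sorted libraries as *Itga4* did, replicate 2 above replicate 3 above replicate 1. That order was common, found in 102 of the 191 other genes with a higher mean, these markers included. Replicates 1 to 3 held 7.61%, 68.5%, and 23.9% of the *Itga4* TPM summed over the sorted libraries. They held 3.69%, 69.4%, and 26.9% of that of *Pecam1* (1.29, 24.25, and 9.38 TPM) and 5.15%, 66.0%, and 28.9% of that of the 25 markers. For *Itga2* these shares were 36.8%, 28.1%, and 35.1%, and thus nearly even. As a percentage of *Pecam1*, *Itga4* was at 11.6%, 5.57%, and 5.01%. The part of endothelial RNA in the higher *Itga4* was not tested, and *Itga4* in LECs was not analysed here. *Kdr*, the VEGF receptor 2 gene, had values for both lines, at 136.83 to 171.50 TPM in LEC control and at 0.15, 1.87, and 1.16 TPM in HaCa4-sorted. In bulk RNA, more cells of a type and more RNA per cell cannot be told apart. No gene of the leukocyte list, a cell type known for alpha-4 integrin, was among the genes analysed here.

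**Figure D2:**
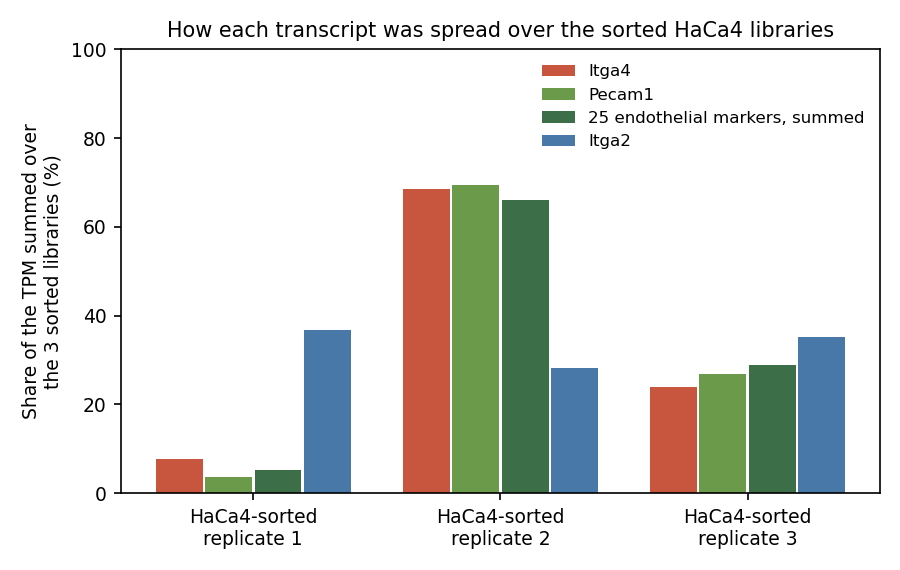
Share (percent, bars from 0) of each transcript's TPM, summed over the 3 HaCa4-sorted libraries, that each library held, for *Itga4*, *Pecam1*, the sum of 25 endothelial markers, and *Itga2*. Replicate 2 holds 68.5% of *Itga4* and 69.4% of *Pecam1*, while *Itga2* is spread nearly evenly.

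Keratinocyte markers differed in direction in HaCa4-sorted. Of 42 such markers 4 had values, of which *Krt6b* and *Krt8* fell, *Krt19* rose, and *Dsg3* did not pass the thresholds, beside 30.0% of all listed genes that passed. The calls of *Krt6b* and *Krt8* were lost without sorted replicate 3 (adjusted p = 0.0769 and 0.0827 from limma), where 0 of the 290 listed genes passed. They were also lost without either control, where 1 control remained and few or none of the listed genes passed. That of *Krt8* was lost without sorted replicate 2 as well (adjusted p = 0.0504 from limma). *Krt19* had 10.03 and 10.28 TPM in HaCa4 control and 16.59, 18.49, and 29.27 TPM after sorting, and its call was lost when any library other than sorted replicate 1 was left out (adjusted p from 0.0522 to 0.196 from limma). *Krt8*, a keratin of simple epithelia, had control values of 283.80 and 380.41 TPM and sorted values of 220.13, 205.34, and 238.24 TPM, so epithelial transcripts remained abundant in every HaCa4 library. The summed level of the 4 genes, most of it *Krt8*, ranged from 321 to 410 TPM in HaCa4 control, and from 233 to 276 TPM after sorting. The part of *Krt8* and *Krt6b* in the lower *Itga2* was not tested. *Krt5* and *Krt14*, the keratins of basal cells, were not analysed here.

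*Itga7* (Entrez 16404, chromosome 10 from 128933421 to 128958286) was a low transcript of LECs that was higher after co-culture with HaCa4 cells. It was at 1.19, 1.85, and 2.0 TPM in LEC control replicates 1 to 3 and at 4.09, 6.95, and 2.96 TPM in LEC-sorted replicates 1 to 3. The groups did not overlap, though sorted replicate 3 lay only 0.96 TPM above the highest control. The control mean was 1.68 ± 0.43 TPM (SD, n = 3). The sorted mean of 4.67 ± 2.06 TPM (SD, n = 3) was 278% of it. The log2 difference was 1.03 (standard error 0.32, 95% interval from 0.27 to 1.79, adjusted p = 0.017 from limma), and it passed the thresholds, as did 96.3% of the 191 genes listed for LECs. Likewise 96.9% of those genes had groups without overlap. By number and direction, the list matches the genes that the study called changed between these same libraries. Passing was therefore largely set by that selection, and the adjusted p is no separate evidence of a difference. The study named *Itga7* among the upregulated adhesion receptor genes of co-cultured LECs and listed RT-qPCR primers for it. By RT-qPCR it reported the tested adhesion genes as higher in LECs after co-culture, though not all of them significantly. *Itga7* was number 74 by size among the 127 genes with a higher mean and number 174 of 191 by level. Its sorted libraries varied more than those of most genes, with an SD of 0.51 on the log2 scale against a median of 0.27 over the 191 genes. The call was lost without LEC control replicate 1, at a log2 difference of 0.89 (adjusted p = 0.0611 from limma). With libraries scaled to the same median of the listed genes it was 0.68 and did not pass (adjusted p = 0.0671 from limma). Because those genes were selected for change, this scaling can remove part of the difference itself. The exact two-sided permutation test gave p = 0.1, the smallest value that 3 libraries against 3 allow.

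**Figure D3:**
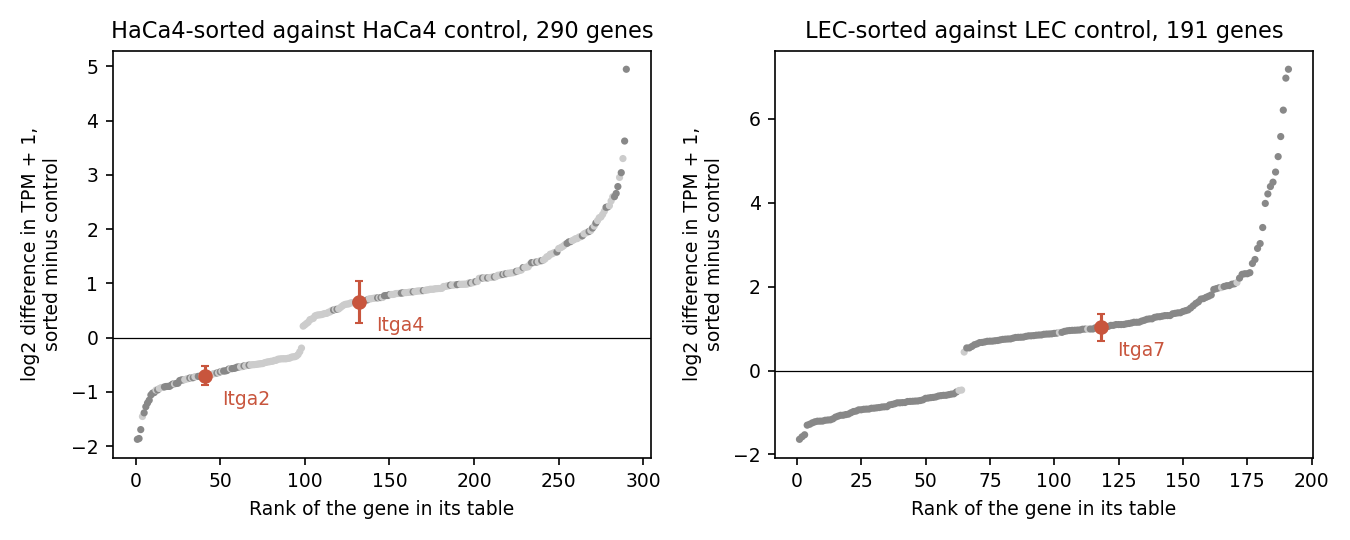
Log2 difference in TPM + 1, sorted minus control, of every listed gene by rank, for 290 genes in HaCa4 and 191 in LECs; dark grey points passed the thresholds, light grey points did not, and red points are the integrin alpha chains with their standard errors. *Itga2* at -0.70, *Itga4* at 0.66, and *Itga7* at 1.03 lie within the body of the listed genes and not at either end.

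Of the cell type markers, *Krt8* was the keratinocyte gene with values in LECs, listed at 0 in the 3 LEC controls and at 0.19, 2.19, and 0.89 TPM in LEC-sorted replicates 1 to 3. Its call (adjusted p = 0.043 from limma) was lost when any 1 of the 3 controls, sorted replicate 2, or sorted replicate 3 was left out, at adjusted p values of 0.0549 to 0.0975. Sorted replicate 2 was highest for both *Krt8* and *Itga7*, whereas replicate 1 was the lowest for *Krt8* and replicate 3 for *Itga7*. The part of HaCa4 RNA in the higher *Itga7* was not tested, and *Itga7* in HaCa4 was not analysed here. As endothelial markers, *Kdr* and *Clec14a* had values in LECs and both fell in LEC-sorted. *Kdr* was at 88.48, 97.37, and 116.71 TPM there, and without control replicate 2 its log2 difference of -0.499 was just under the threshold. The call of *Clec14a* was lost without sorted replicate 1 (adjusted p = 0.0876 from limma) or sorted replicate 2 (adjusted p = 0.0535). *Pecam1*, *Prox1*, and *Lyve1* in LECs were not analysed here.

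Ligands of these receptors were followed by a list of 80 integrin ligands and matrix genes, of which 13 had values in HaCa4 and 2 in LECs. In HaCa4, 2 rose, 2 fell, and 9 did not pass, with a median log2 difference of 1.03 beside 0.74 over all listed genes. The 4 calls among 13 were close to the 30.0% of all listed genes that passed, and the members that fell were *Spp1* and *Jam2*. *Spp1*, the gene of osteopontin, a ligand of alpha-4 integrins, was at 4753.94 and 4854.74 TPM in HaCa4 control and at 3023.86, 1849.58, and 2993.62 TPM in HaCa4-sorted, with a log2 difference of -0.91 (adjusted p = 0.0405 from limma). *Jam2*, which encodes JAM-B, another such ligand, had nearly equal controls of 46.70 and 46.06 TPM and sorted values of 23.40, 21.90, and 28.35 TPM. It fell by 0.90 on the log2 scale, with a standard error of 0.16 (limma, adjusted p = 0.0308). The rises were those of *Lgals3bp*, whose protein binds beta-1 integrins and matrix, and *Tinagl1*, a basement membrane protein. The calls of all 4 genes were lost without sorted replicate 3, where 0 of the 290 listed genes passed. They were also lost without either control, where 1 control remained and few or none of the listed genes passed. Without sorted replicate 3 the adjusted p values from limma were 0.0827 for *Spp1* and 0.0769 for each of *Jam2*, *Lgals3bp*, and *Tinagl1*. Scaling to the same sum, which includes *Spp1* itself, also ended the call of *Spp1* (adjusted p = 0.068 from limma). Scaling to the same median of the listed genes ended that of *Tinagl1* (adjusted p = 0.114 from limma). *Lama4*, a laminin alpha chain, did not pass the thresholds. The study named it among the matrix genes raised in co-cultured HaCa4 cells and found it elevated there by RT-qPCR. Control replicate 1 had 0.02 TPM of it, replicate 2 was listed at 0, and the sorted libraries had 0.13, 1.59, and 0.33 TPM, in the order of *Itga4*. Of the 9 genes that did not pass, 7 were under 0.5 TPM in both controls, and *Pecam1* and *Icam2* among them are endothelial markers as well.

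In LECs both listed ligands rose, beside 96.3% of all listed genes that passed the thresholds, 122 of 191 upward. *Vcam1*, the counter-receptor of alpha-4 integrins, was at 27.76, 46.21, and 35.42 TPM in LEC control and at 78.35, 81.73, and 76.82 TPM in LEC-sorted, a log2 difference of 1.12 (adjusted p = 0.00384 from limma). Its sorted libraries lay close together, with an SD of 2.51 TPM. *Dcn*, the gene of decorin, a collagen-bound proteoglycan that alpha-2 beta-1 can bind, went from 0.07, 0.60, and 0.26 TPM in LEC control replicates 1 to 3 up to 13.56, 88.88, and 30.08 TPM after sorting, a log2 difference of 4.73 (adjusted p = 0.00124 from limma). Replicate 2 was highest and replicate 1 lowest for *Dcn*, as for the keratin *Krt8* in the same libraries (0.19, 2.19, and 0.89 TPM), and the part of HaCa4 RNA in the higher *Dcn* was not tested. *Dcn* is also a fibroblast marker, and it was the single gene of 19 mural and fibroblast markers with values in LECs.

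Among 57 adaptors and regulators of integrins, 1 had values in HaCa4 and 2 in LECs. *Lims1* and *Parvb* encode PINCH-1 and beta-parvin, partners in the complex that joins integrin beta tails to actin. *Lims1* was at 151.02, 146.00, and 158.74 TPM in LEC control and at 196.83, 239.41, and 230.26 TPM in LEC-sorted and rose by a log2 difference of 0.54 (adjusted p = 0.0101 from limma). It did not pass without sorted replicate 2 (0.485, under the threshold of 0.5). Nor did it pass with libraries scaled to the same median (0.05, adjusted p = 0.746 from limma) or sum (0.22, adjusted p = 0.272). Both come from the listed genes and can remove a change that those genes share. *Parvb* was lower in every sorted library, at 131.01, 95.53, and 100.94 TPM against 161.65, 156.05, and 132.58 TPM. Its adjusted p was 0.0329 from limma, but its log2 difference of -0.46 was under the threshold of 0.5. *Rasgrp3*, an activator of the small GTPase Rap1, which switches integrins on, had 0.05 and 0.03 TPM in HaCa4 control. Its sorted libraries had 0.37, 5.66, and 2.05 TPM and it did not pass (adjusted p = 0.0925 from limma).

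The genes most like each alpha chain were found by the share of a gene's summed TPM in each library, with the percentage of TPM that would have to move between libraries to make the shares equal as the distance, among genes with at least 1 TPM in some library. For *Itga2*, over 5 libraries and 275 genes, the nearest were *Chst2* (a sulfotransferase), *Cirbp* (a cold-inducible RNA-binding protein), *Acsbg1* (an acyl-CoA synthetase), *Xdh* (xanthine dehydrogenase), and *Tnnt2* (cardiac troponin T). Their distances were 2.29% to 3.53%, beside a median of 29.1% over the 275 genes. *Chst2* had controls of 48.95 and 40.42 TPM and sorted values of 25.92, 24.37, and 28.31 TPM, almost the levels of *Itga2* itself. For *Itga4* the nearest were *Npr3* (a clearance receptor of natriuretic peptides), *Grap* (an adaptor protein), *Adgrg3* (an adhesion G protein-coupled receptor), *Rasgrp3*, and *Tfpi2* (a protease inhibitor), at distances of 1.23% to 3.10% beside a median of 49.7%. *Npr3* had 0.15, 1.51, and 0.53 TPM in HaCa4-sorted, and both controls were listed at 0. For *Itga7*, over 6 libraries and 189 genes, the nearest were *Nol4*, *Ccl2* (a monocyte chemokine), *Sele* (E-selectin), *Nts* (neurotensin), and *Psg22*. Their distances were 6.79% to 9.13%, beside a median of 22.1%, so no gene followed *Itga7* as closely as the nearest ones followed *Itga2* and *Itga4*. *Nts* was far more abundant, with 36.10, 38.50, and 37.01 TPM in LEC control, and its sorted values were 100.19, 112.16, and 62.35 TPM, the same order of sorted libraries as *Itga7*.

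The order of the sorted libraries differed between *Itga2* and *Itga4*, whereas *Itga7* was measured in other libraries and its order cannot be set against theirs. Replicates 2, 3, and 1 in falling order, as in *Itga4*, were found in 102 of the 191 other genes with a higher mean in HaCa4-sorted. The same order was found in 18 of the 98 genes with a lower mean. Replicates 1, 3, and 2, as in *Itga2*, were found in 22 of the 97 other genes with a lower mean and in 22 of the 192 with a higher mean. In LECs, 41 of the 126 other genes with a higher mean had the order of *Itga7*, replicates 2, 1, and 3, as did 2 of the 64 with a lower mean. These counts describe genes that share libraries and are not independent of each other.

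**Figure D4:**
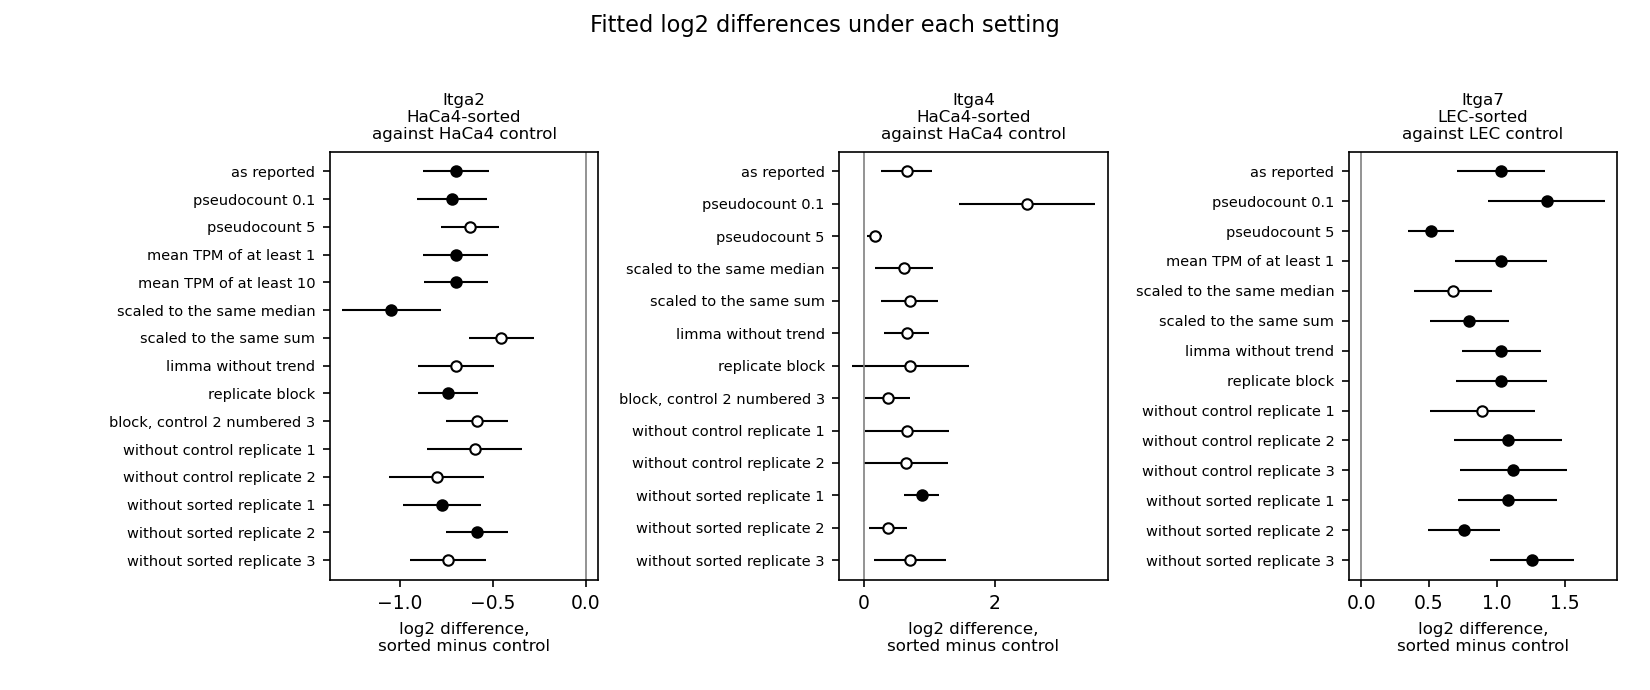
Log2 difference, sorted minus control, with standard error, of each alpha chain as reported and under every alternative; filled points passed the thresholds and open points did not. The direction is the same in every row of each panel, from -1.04 to -0.45 for *Itga2*, from 0.17 to 2.49 for *Itga4*, and from 0.51 to 1.37 for *Itga7* over the alternatives. Because the groups do not overlap, only the rows with scaled libraries could have differed in direction.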

How the data were processed

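RNA-seq was performed by the authors on 11 libraries, 1 per sample. Reads were filtered with SOAPnuke and aligned to GRCm38.p6 with HISAT (HISAT2 2.0.4 in the submitters' processing notes), and the authors called differential expression with DESeq2. The authors deposited TPM with 2 decimals for each gene in each library, and the tool that made them is not given in the sources used here. The genes analysed here sum to 1.84% to 3.85% of a library's TPM, so each table is a selection. TPM keeps no read numbers, so depth is unknown and precision rests on the spread between libraries. No 2 libraries were the same (at most 5 identical values above 0 in a pair).

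Sorted cells were compared with the control of their line by limma 3.58.1 (R 4.3.3) on log2(TPM + 1), its prior variance following mean expression, without rescaling, two-sided, with Benjamini-Hochberg adjustment over all listed genes of that line. The step was tested on simulated data. The listed genes were already a selection from these same libraries, so the adjustment does not control false discoveries among all genes. Named were the alpha chains, listed genes of fixed integrin and marker lists, and the 5 most similar genes per chain (at least 1 TPM in some library). Members and lists were chosen with earlier results of these data known. The second HaCa4 control is replicate 2 by its label, and its column carries the number 3. Alternatives changed the pseudocount, low-value filter, scaling, trend, replicate block, threshold, or left out a library. Scaling used the median or sum of the listed genes only, so it can remove or add a change that those selected genes share. Permutation tests were run with scipy 1.17.1 under Python 3.11.15.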

Additional observations from a re-analysis of the deposited data

How the results depend on the processing

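The direction of each alpha chain was kept in all 39 alternative fits, and the side of the thresholds in 29 of them. Because the groups of each chain did not overlap, only scaling the libraries could have reversed a direction. For *Itga2* the log2 difference no longer passed with a pseudocount of 5 (-0.62, adjusted p = 0.0502 from limma), scaling to the same sum (-0.45), limma without the trend (-0.70, adjusted p = 0.0735), or a replicate block with the second control numbered 3 (-0.58, adjusted p = 0.0803). It ranged from -0.80 to -0.58 when each library was left out in turn, that of *Itga4* from 0.37 to 0.89, and that of *Itga7* from 0.76 to 1.26. Where 1 control remained, it was assumed to vary like the other libraries. *Itga4* could not be fitted under either filter on mean TPM, nor *Itga7* under the filter at 10. With the same median, *Itga7* had 0.68 and did not pass.

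In HaCa4, 87 genes passed (46 higher, 41 lower), against 177 with a pseudocount of 0.1, 33 with 5, 39 at a log2 threshold of 1, 22 with the block numbered 3, and 0 without the trend (161 at an unadjusted p under 0.05). Scaling to the same median gave 136 (56 higher, 80 lower) and to the same sum 73 (62 higher, 11 lower), with median shifts of -0.29 and 0.21. Leaving out 1 library gave 0 to 194, with 0 by limma without control replicate 2 or sorted replicate 3 (70 and 126 at an unadjusted p under 0.05), 6 without control replicate 1, and 194 without sorted replicate 1. In LECs, 184 passed (122 higher, 62 lower), 125 with the same median (61 higher, 64 lower, median shift -0.48), 95 at a log2 threshold of 1, and 165 to 177 without 1 library. The same sum shifted the median by -0.31.

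Same-numbered libraries correlated in their deviations from group means at 0.23 and 0.28 in HaCa4, over 2 shared numbers, and at 0.23, 0.07, and -0.02 in LECs, where 2 of 3 sorted libraries correlated best with its own number in the controls. With 2 HaCa4 controls, the correlations with 1 control mirror those with the other. Whether the numbers pair the libraries is thus not settled, and the main fits did not use them as pairs. With the replicate block by label, 115 HaCa4 and 182 LEC genes passed, and the log2 differences were -0.74 for *Itga2*, 0.71 for *Itga4*, and 1.03 for *Itga7*, with no call changed. The depth of the libraries is unknown.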
